A study of Homo sapiens with 3 samples.

Results

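The comparison of cantharidin-treated with control PANC-1 cells rested on 2 of the 3 arrays of the series, 1 for each group. PANC-1 is an established epithelial-like line from a human pancreatic ductal carcinoma. Both groups were grown in the same serum-containing medium, and the treated cells received 20 µM cantharidin for 24 h. The labels name no vehicle and no time for the control cells, and no second culture of either group. Every value below is therefore that of a single array, and no test between groups was possible. Both arrays also came from 1 slide and 1 scan, and a difference between groups cannot be told apart from a difference between 2 positions on that slide. A probe was compared unless its signal was near background on both arrays, which left 26775 of the 34049 probes with a value on both. A gene was represented by its brightest probe, and 16664 of the 19703 genes with a matched probe were compared, while 3039 were below background on both arrays.

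Cantharidin is a terpenoid from blister beetles that inhibits protein phosphatase 2A (PP2A), a serine/threonine phosphatase built from a scaffold, a catalytic and an exchangeable regulatory subunit. PP2A removes phosphate from a wide range of proteins, among them kinases of the ERK, JNK and NF-κB pathways, proteins that control entry into mitosis, and regulators of translation. Transcripts in several of these areas are therefore described by gene class: cell division, stress responses, mitochondria and metabolism, RNA and chromatin, early transcription factors, secreted proteins, and adhesion. Intensities are given as the scanner software produced them. Differences are given after each array was set to its own 75th percentile, which lay at an intensity of 784 for control and 712 for cantharidin.

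The arrays measured similar numbers of probes, with 72.8% of probes well above background for control and 73.7% for cantharidin, and no saturated spot on either. The lowest intensity well above background was 35.0 for control and 21.9 for cantharidin. Among 775 probes with replicate spots that were above background on both arrays, 1.70% of the pairs of spots of a probe lay at least 1.5-fold apart on the control array and 3.01% on the cantharidin array, which measures the spread within an array and not between cultures.

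At a threshold of 1.5-fold, 4563 genes (27.4%) were higher after cantharidin and 5690 (34.1%) were lower, which left 6411 within 1.5-fold. These shares are the background for every gene class below. The median difference over all genes compared was -0.16 on the log2 scale, so a class was close to the rest of the transcriptome when its median was near this value. Among the 14911 genes above background on both arrays, 993 passed 4-fold in the higher direction and 1126 in the lower, and 103 and 92 passed 16-fold. A further 982 genes were above background on the cantharidin array alone and 771 on the control array alone, and folds for these are given as lower bounds. Of 2291 genes past 1.5-fold with 2 or more probes compared, 74.7% had all probes moving the same way.

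**Figure D1:**
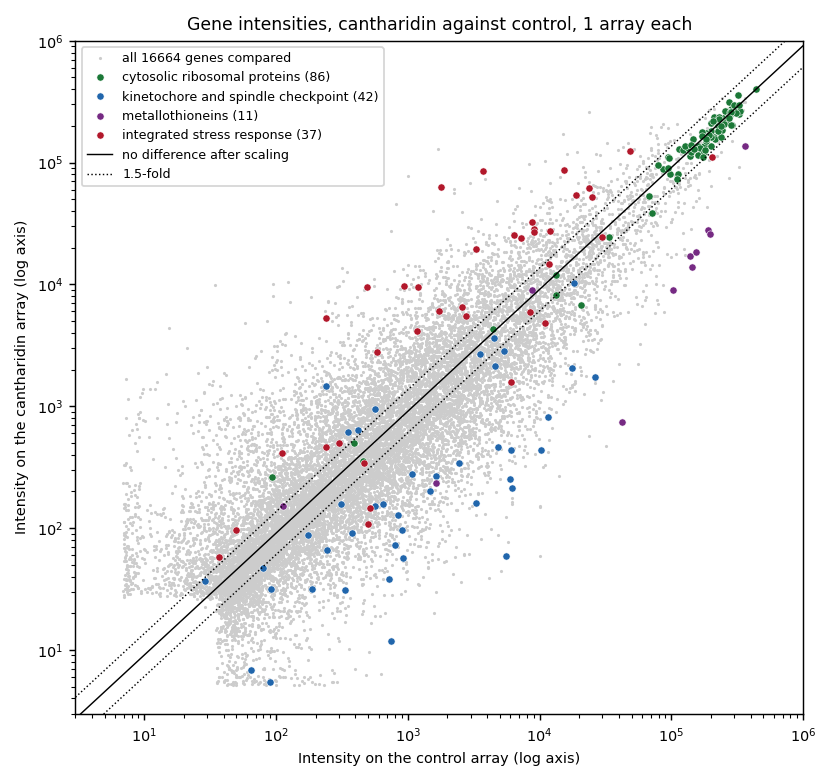
Intensity of each of the 16664 genes compared on the control array (x axis) and the cantharidin array (y axis), both log axes, with 4 gene classes coloured. The solid line marks no difference after scaling and the dotted lines 1.5-fold. Cytosolic ribosomal protein genes lie along the line at high intensity, kinetochore and metallothionein genes mostly below it, and integrated stress response genes mostly above it.

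The identity of the cells was checked on marker lists. Of 10 ductal epithelial markers, 9 were above background, and the simple epithelial keratins KRT8 (51898) and KRT18 (70664) were bright on the control array. CFTR, the chloride channel of duct cells, was below background on both arrays, as was the mesenchymal matrix gene FN1, while the intermediate filament gene VIM was bright and level (311685 to 304354 from control to cantharidin). The mesenchymal list around VIM was not level, with 4 of 7 genes lower and 2 higher (median -1.35). The ductal markers themselves differed between the arrays, with 6 lower after cantharidin and 1, KRT18, higher. Markers of other cell types were not all dim. All 9 leukocyte markers with a probe were above background on one array or both, from CSF1R (66.5 to 166) to CD79A (4291 to 3256), and 2 were higher and 2 lower. Of the endothelial, fibroblast and acinar or islet lists, 5 of 8, 5 of 9 and 7 of 9 genes were above background, with 2 higher and 2 lower, 2 and 3, and 3 and 0. The part of such signals in the results below was not tested.

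Differences this wide were not spread evenly over the gene lists. The lists were chosen with earlier results of these data known, so the counts describe these lists only. Of 103 lists with 10 or more genes compared, 12 had a median at least 1.5-fold higher and 26 a median at least 1.5-fold lower. The lowest medians belonged to metallothioneins, genes of mitosis, cyclins, nucleotide supply and DNA replication, and the highest to inhibitors and activators of matrix proteolysis, the integrated stress response, small nucleolar RNA host genes and the NF-κB family. Olfactory receptor genes, whose known site of expression is the nose, served as a measure of dim probes. Only 182 of their 354 genes on the array were compared, and of these 13.7% were higher and 28.02% lower, with a median of -0.22.

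**Figure D2:**
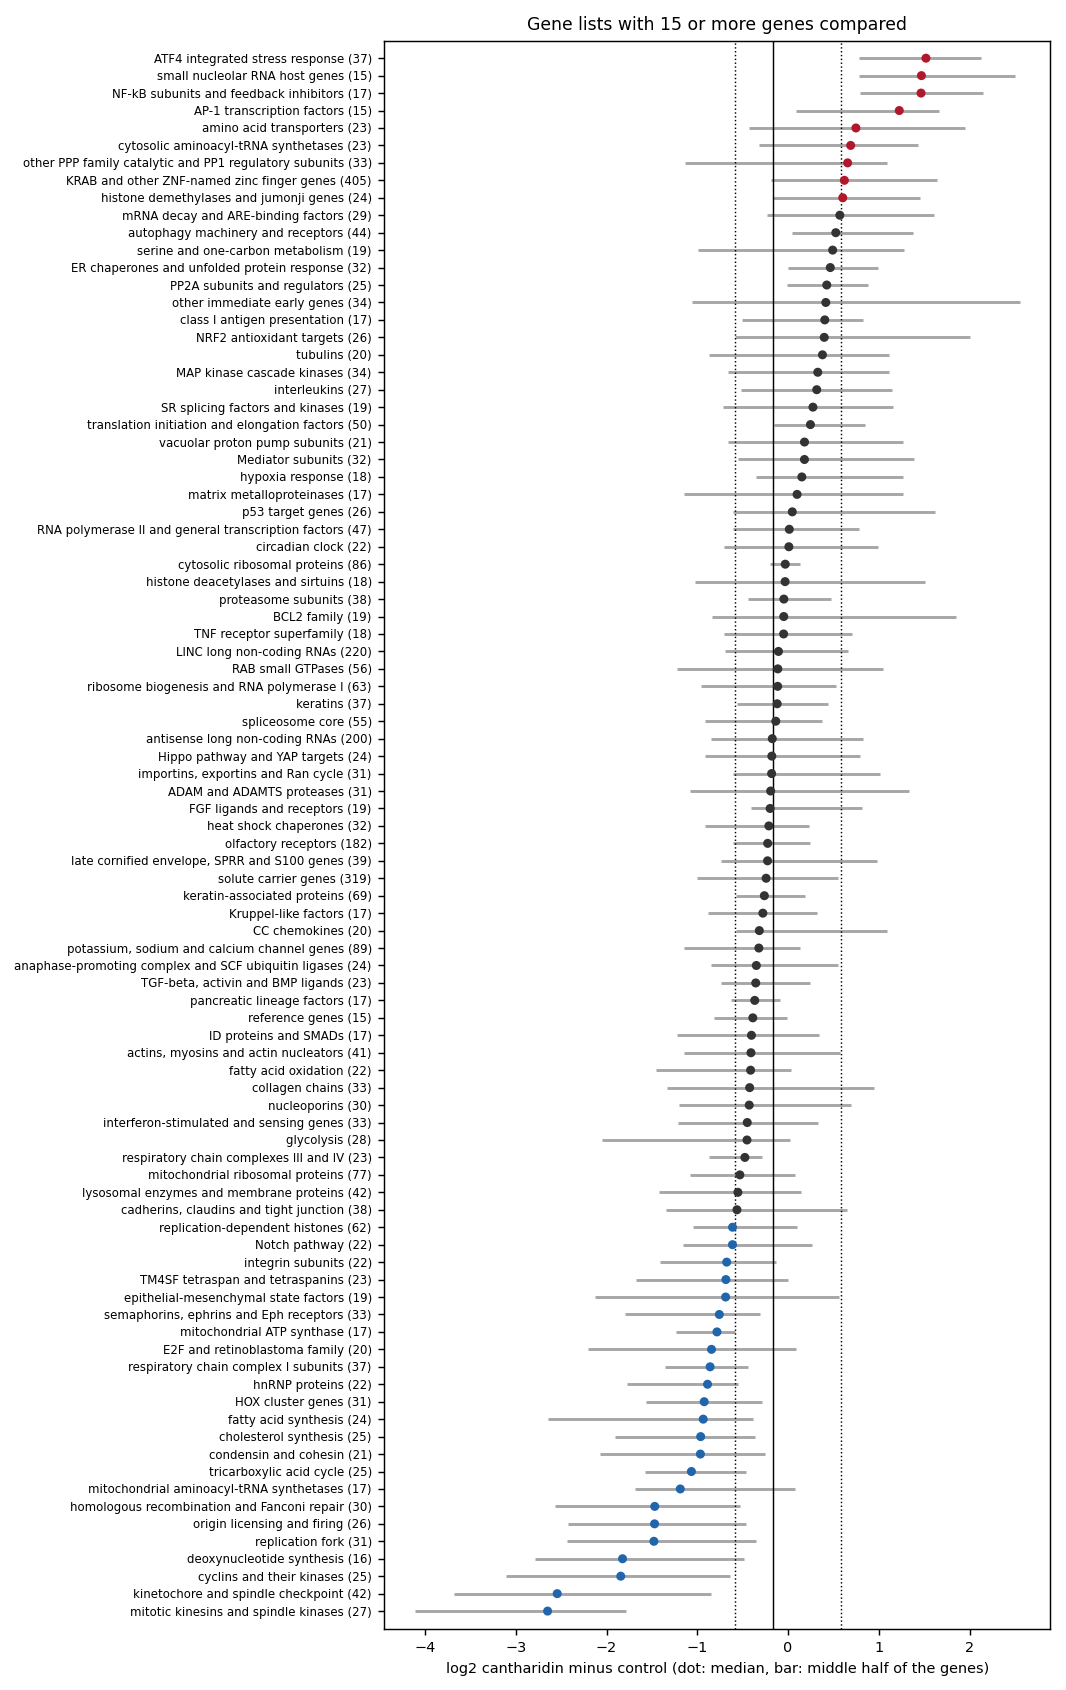
Median log2 difference of cantharidin minus control (dots) and the range from the 25th to the 75th percentile of the genes (bars) for the lists with 15 or more genes compared, with the number of genes in brackets. The solid line marks the median of all genes (-0.16) and the dotted lines 1.5-fold. Red dots lie at or above 1.5-fold and blue dots at or below it, from mitotic kinesins (-2.65) to the integrated stress response (1.52).

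Genes of the kinetochore, the protein complex that ties chromosomes to the spindle, were low after cantharidin. Of 42 kinetochore and spindle checkpoint genes compared, 35 fell and 4 rose, with a median of -2.54, against 34.1% of all genes lower. SPC25, a subunit of the microtubule-binding NDC80 complex, went from an intensity of 6218 to 213 (26.5-fold lower), and NDC80 itself from 3265 to 159 (18.6-fold lower). MAD2L1, which encodes the checkpoint protein MAD2, fell 21.3-fold from 10189 to 435. ZWINT, which holds checkpoint proteins at the kinetochore, fell 21.2-fold from 5940.2 to 254. These 4 genes thus kept a signal above background at a small part of their control level. The checkpoint kinase TTK did not, at 749 in control and 11.9 after cantharidin, at least 31.1-fold lower. CENPA, the histone H3 variant that marks centromeres, fell 5.61-fold from 1638 to 265. MIS12 was the exception with the largest rise in the list, 6.76-fold from 237 to 1459. On bulk RNA, fewer dividing cells and less of these transcripts in each cell cannot be told apart.

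The motors and kinases of mitosis followed the kinetochore. Of 27 mitotic kinesins, spindle kinases and cytokinesis genes, 23 fell and 2 rose. NEK2, a kinase that separates centrosomes, went from 2521 to 35.9, 63.8-fold lower. AURKB, the kinase of the chromosomal passenger complex, fell 40.01-fold from 3567 to 81.03, and its partners BIRC5 and INCENP fell 23.9-fold and 15.3-fold. KIF22, a chromosome-arm kinesin, fell 30.1-fold from 10990.2 to 332. PLK1 fell 8.61-fold from 2247 to 237, whereas AURKA fell only 3.58-fold from 2324 to 590.1. Genes of the chromosomal passenger complex thus fell further than the kinases PLK1 and AURKA. Among 21 condensin and cohesin genes, 13 fell and 3 rose, with CDCA5, which protects cohesin, 15.5-fold lower (26308 to 1542).

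Many mitotic genes carry a CHR element (letters TTTGAA) and CCAAT boxes just upstream of their start, which are bound by the DREAM complex and by NF-Y. In the window from 250 bases before to 50 bases after the annotated start, TTTGAA was found on either strand in 15 of 34 kinetochore and checkpoint genes with a promoter (44.1%), against 11.1% of the 13042 genes compared and 15.4% of all 27305 promoters. CCAAT was found in 22 of these 34 (64.7%), against 36.4% of the genes compared and 35.7% of all promoters. TTTGAA and CCAAT or their reverse complements (TTCAAA and ATTGG) are in capitals in the windows below. These are the 130 bases before the start of 5 genes from the cell division lists, shown because they hold both elements. They were read 5′ to 3′ from RefSeq promoters of GRCh38.p14 and lie at chr16:23678759-23678888 on the plus strand for PLK1, chr15:59105016-59105145 on the plus strand for CCNB2, chr10:56361260-56361389 on the minus strand for ZWINT, chr10:92593000-92593129 on the plus strand for KIF11 and chr2:26785926-26786055 on the plus strand for CENPA.
PLK1: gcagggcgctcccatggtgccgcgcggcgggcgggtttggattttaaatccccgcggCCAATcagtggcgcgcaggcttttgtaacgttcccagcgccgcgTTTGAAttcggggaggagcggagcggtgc
CCNB2: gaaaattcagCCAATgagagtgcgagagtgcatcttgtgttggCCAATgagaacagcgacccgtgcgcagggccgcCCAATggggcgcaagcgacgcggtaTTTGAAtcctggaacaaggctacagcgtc
ZWINT: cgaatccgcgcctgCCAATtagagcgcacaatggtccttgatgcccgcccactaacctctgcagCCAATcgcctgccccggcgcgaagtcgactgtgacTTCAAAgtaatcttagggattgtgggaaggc
KIF11: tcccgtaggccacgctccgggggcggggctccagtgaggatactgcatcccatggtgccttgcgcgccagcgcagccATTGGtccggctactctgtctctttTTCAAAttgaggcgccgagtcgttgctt
CENPA: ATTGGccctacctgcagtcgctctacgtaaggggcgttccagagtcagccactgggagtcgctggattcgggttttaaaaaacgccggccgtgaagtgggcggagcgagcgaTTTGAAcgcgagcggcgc

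In PLK1 and CCNB2 the TTTGAA element began 29 bases before the start, in KIF11 28 bases, in ZWINT 31 bases and in CENPA 18 bases. The mitotic cyclin gene CCNB2 fell 8.63-fold from 17451 to 1839, and KIF11, the kinesin that pushes spindle poles apart, fell 6.98-fold from 775 to 101. A match of these letters describes the window and does not show that a factor bound there. Over all genes compared, 35.5% of the 1446 genes with TTTGAA were lower and 34.6% of the 11596 without it. By size, TTTGAA lay in 11.3% of genes past 1.5-fold lower, 10.8% past 4-fold and 20.3% past 16-fold (15 of 74), and in 9.74%, 9.74% and 8.86% (7 of 79) of genes higher by the same steps. In these and all later promoter shares, the 4-fold and 16-fold steps took only genes above background on both arrays, and the 1.5-fold step did not.

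Genes that copy DNA were low as well. Of 26 genes of origin licensing and firing, 19 fell and 1 rose (median -1.47). The GINS subunits GINS1 and GINS2, parts of the replicative helicase, fell 17.8-fold from 7507 to 382 and 14.03-fold from 1252 to 81.1. The helicase core gene MCM3 fell 7.07-fold from 12421 to 1597 and the origin kinase gene CDC7 fell 6.74-fold from 312 to 42.1. GINS3 differed from its partners and rose 2.93-fold from 1105 to 2943, and CDC6, a licensing factor, stayed within 1.5-fold (-0.17 on the log2 scale). At the fork, 21 of 31 genes fell and 2 rose. TIMELESS, PRIM1 and UHRF1 fell 14.6-fold, 13.8-fold and 7.81-fold, and PCNA, the sliding clamp, fell 3.24-fold from 16393 to 4595. FEN1, the flap nuclease, was unlike them and level at 461 to 419 after scaling. The supply of deoxynucleotides shared the direction, with 11 of 16 genes lower and 0 higher. RRM2, the regulated subunit of ribonucleotide reductase, fell 22.7-fold from 1539 to 61.6, and TYMS, which makes thymidylate, fell 16.04-fold from 57671 to 3268. The p53-inducible subunit RRM2B was within 1.5-fold (-0.18 on the log2 scale).

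Homologous recombination and Fanconi anaemia repair genes fell in 22 of 30 cases, and 1, the nuclease gene MUS81, rose (4.15-fold, 1631 to 6152). UBE2T, the ubiquitin-conjugating enzyme of the Fanconi pathway, went from 23817 to 570.1, 37.97-fold lower. MND1, a recombination partner better known from meiosis, fell 43.1-fold from 2927 to 61.8. RAD51AP1 was not well above background after cantharidin (269.7 to 5.49, at least 11.2-fold lower).

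The regulators above these genes did not all move together. Of 20 E2F, retinoblastoma and MuvB genes, 12 fell and 3 rose. The activator E2F1 fell from 658 to a signal not well above background (28.1, at least 21.3-fold lower), and E2F2 fell 13.7-fold from 1117 to 74.1. FOXM1, the factor of late cell cycle genes, fell 8.49-fold from 1463 to 157. The repressor E2F7 instead rose 3.45-fold from 385 to 1207, and LIN37, a DREAM subunit, rose 4.31-fold from 4269 to 16714. RB1 stayed within 1.5-fold (-0.47). Of 25 cyclins and their kinases, 19 fell and 2 rose. CCNA2, the S-phase and G2 cyclin, fell 22.5-fold from 1929 to 77.8. CCND2, a cyclin induced by growth signals, rose 10.5-fold from 86.03 to 819.98, while CCND1 fell 2.09-fold from 1484 to 646. Inhibitors of these kinases were split in an unequal way, with 6 of 8 lower and CDKN1A the sole member higher. CDKN1B, which encodes p27, fell 18.03-fold from 5000.4 to 252, and CDKN3, a phosphatase for CDKs that peaks in mitosis, fell 14.6-fold.

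Replication-dependent histone genes, which are made in S phase, were mixed. Of 62 compared, 34 fell and 13 rose (median -0.61). Most of the rises were in H4 genes, with H4C8 7.26-fold higher (219 to 1447) and H4C6 5.42-fold higher (158 to 777). Others of the same family fell, such as H4C3 at 6.09-fold lower (36735 to 5480.4), and H2AC20 fell 8.97-fold from 719.8 to 72.9. Members of this family are close copies, and probes may cross-hybridise between them.

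The integrated stress response, in which the factor ATF4 turns on genes of amino acid supply when translation initiation is slowed, had the highest median among lists of 15 or more genes. Of 37 genes compared, 28 rose and 5 fell (median 1.52), against 27.4% of all genes higher. CHAC1, which degrades glutathione, went from 1792 to 63439.9, 38.9-fold higher by its brightest probe and 3.57 higher on the log2 scale by its other probe. TRIB3, a pseudokinase that dampens ATF4, rose 24.9-fold from 3745 to 84584. SLC7A11, the cystine importer, rose 24.3-fold from 239 to 5283. SESN2, which restrains mTORC1 when leucine is short, rose 21.6-fold from 488 to 9557. ATF4 itself rose 2.78-fold from 48802 to 123268 and its partner DDIT3 (CHOP) 3.44-fold from 9122 to 28537. The sensor kinases went different ways: EIF2AK3 (PERK) rose 4.104-fold, whereas EIF2AK4 (GCN2) fell 4.24-fold and EIF2AK1 (HRI) 2.07-fold. SLC38A2, a glutamine transporter usually counted with this response, fell 3.53-fold from 6089.8 to 1567.

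Transfer RNA synthetases, the enzymes that load amino acids, divided by compartment. Of 23 cytosolic synthetases and their scaffold proteins, 13 rose and 4 fell (median 0.69). Of 17 mitochondrial synthetases, 2 rose and 11 fell (median -1.19). GARS1, which loads glycine in both compartments, rose 7.54-fold from 1987 to 13606. CARS1, WARS1 and TARS1, for cysteine, tryptophan and threonine, rose 5.02-fold, 4.104-fold and 3.84-fold. AARS1, for alanine, was the opposite and fell 4.796-fold from 1042 to 197. Of the mitochondrial enzymes, HARS2, EARS2 and IARS2 fell 4.54-fold, 4.24-fold and 3.55-fold.

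A C/EBP-ATF composite site (letters TGATGNAA, either strand) lay in the promoter window of 5 of 30 integrated stress response genes (16.7%), against 2.24% of the genes compared and 3.67% of all promoters. CHAC1 and ASNS, which makes asparagine and rose 6.29-fold from 15332 to 87681, are shown with the site or its reverse complement in capitals, as is AARS1, which holds the same letters and fell. The windows are 130 bases of RefSeq promoters of GRCh38.p14, ending 121 bases before the start in CHAC1 and AARS1 and at the start in ASNS. They lie at chr15:40953221-40953350 on the plus strand for CHAC1, chr7:97872409-97872538 on the minus strand for ASNS and chr16:70289627-70289756 on the minus strand for AARS1.
CHAC1: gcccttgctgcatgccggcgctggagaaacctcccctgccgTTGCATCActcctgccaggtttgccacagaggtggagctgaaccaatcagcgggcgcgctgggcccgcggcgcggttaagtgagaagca
ASNS: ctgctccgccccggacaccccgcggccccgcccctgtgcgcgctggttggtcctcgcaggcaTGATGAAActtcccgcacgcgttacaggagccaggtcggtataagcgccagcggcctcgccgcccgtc
AARS1: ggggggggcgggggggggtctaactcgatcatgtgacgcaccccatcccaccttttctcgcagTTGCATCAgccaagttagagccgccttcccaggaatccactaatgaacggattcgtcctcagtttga

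The site began 209 bases before the start in CHAC1, 68 bases in ASNS and 187 bases in AARS1. Amino acid transporters rose in 13 of 23 cases and fell in 4. SLC1A5, a glutamine transporter, rose 4.61-fold from 976 to 4089, and SLC7A5 with its heavy chain SLC3A2, the leucine exchanger, rose 3.68-fold and 3.305-fold. SLC6A14 was not well above background in control (8.93 to 862, at least 27.1-fold higher), and SLC43A2, a further leucine transporter, fell 9.12-fold from 1377 to 137. Serine and one-carbon genes were divided, with 9 higher and 6 lower of 19. PHGDH, the entry enzyme of serine synthesis, rose 4.37-fold from 6373 to 25308. The cytosolic serine hydroxymethyltransferase SHMT1 fell 32.9-fold from 1222 to 33.8 by its brightest probe, and its other probe differed by -3.84 on the log2 scale. The mitochondrial counterpart SHMT2 was within 1.5-fold (0.45).

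Of the protein folding lists, that of the endoplasmic reticulum (ER) leaned higher and that of heat shock genes had a median near that of all genes. Of 32 ER chaperones and unfolded protein response genes, 14 rose and 3 fell. HSPA5 (BiP), the main ER chaperone, rose 6.42-fold from 4132 to 24091, DNAJC3, an inhibitor of PERK, rose 6.06-fold, and the transcription factor gene XBP1 rose 4.97-fold from 5384 to 24305. Of 32 heat shock genes, 7 rose (21.9%) and 14 fell (43.8%), against 27.4% and 34.1% of all genes. Their median was -0.21, against -0.16 for all genes and 0.47 for the ER list. The inducible HSP70 gene HSPA1A fell 1.53-fold from 97303 to 57805, and its close copy HSPA1B differed by -0.23 on the log2 scale (31359 to 24369). BAG3 and HSPB8, which work together in chaperone-assisted autophagy, rose 3.08-fold and 3.87-fold. The mitochondrial chaperonin pair HSPD1 and HSPE1 fell 3.53-fold from 59047 to 15199.8 and 5.79-fold from 125461 to 19698.

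Nuclear genes of mitochondrial energy supply were mostly lower or level. None of 37 complex I subunit genes rose and 24 fell (median -0.86). None of 23 genes of complexes III and IV rose and 9 fell (median -0.48). None of 17 ATP synthase genes rose and 12 fell (median -0.78). NDUFV2, a core subunit of complex I, fell 7.62-fold from 27904 to 3329, and NDUFB10 fell 6.04-fold from 23412 to 3525. CYC1, cytochrome c1 of complex III, fell 3.36-fold from 15254 to 4128, whereas cytochrome c itself (CYCS) was level at 29056 to 28122 (0.09). ATP5IF1, the inhibitor of the synthase in reverse, fell 3.28-fold from 60832 to 16878. In the tricarboxylic acid cycle and pyruvate dehydrogenase, 18 of 25 genes fell and 2 rose. IDH2, the mitochondrial NADP-linked isocitrate dehydrogenase, fell 9.51-fold from 6066 to 579.9, while its cytosolic relative IDH1 rose 1.83-fold from 3956 to 6585. Citrate synthase (CS) fell 3.05-fold from 35767 to 10662, and DLAT, a core enzyme of pyruvate dehydrogenase, fell 7.57-fold from 822 to 98.6.

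The protein synthesis machinery of mitochondria and cytosol stood apart in the same way. Of 77 mitochondrial ribosomal protein genes, 37 fell and 8 rose, with MRPS34, MRPL12 and MRPL34 the lowest at 11.1-fold, 8.06-fold and 7.85-fold. Of 86 cytosolic ribosomal protein genes, 83 stayed within 1.5-fold (median -0.03). Only RPL27A rose (3.11-fold, 92.9 to 263), and only RPL7 (1.69-fold) and RPL22 (2.76-fold) fell. Most cytosolic genes of this list were among the brightest on the arrays, and RPL27A was dim in comparison.

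**Figure D3:**
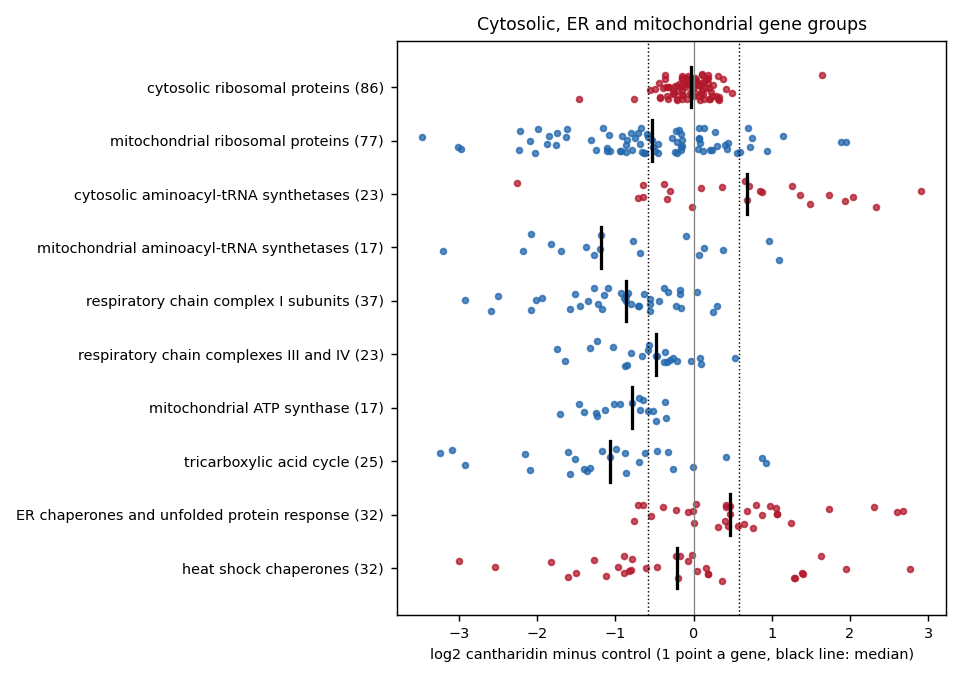
Log2 difference of cantharidin minus control (x axis) for each gene of 10 lists, with the number of genes in brackets. Points are genes, black lines are medians, dotted lines mark 1.5-fold, and red marks cytosolic, ER and heat shock lists, blue mitochondrial lists. Cytosolic ribosomal proteins gather at a median of -0.03 while the mitochondrial lists lie to the left, from -0.48 for complexes III and IV to -1.19 for synthetases.

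Lipid and sugar metabolism also leaned lower. In cholesterol synthesis 16 of 25 genes fell and 3 rose. MSMO1, a sterol demethylase, went from 3433 to 191, 16.4-fold lower. STARD4, which carries cholesterol between membranes, rose 6.47-fold from 216 to 1269. In fatty acid synthesis 16 of 24 genes fell and 3 rose. SCD, the desaturase, fell 15.03-fold from 7808 to 472, and FASN, the fatty acid synthase, fell 5.87-fold from 30040.0 to 4652. LPIN1, a phosphatidate phosphatase, rose 5.09-fold. Glycolysis had 12 lower and 4 higher of 28 genes. HK2 and PFKFB3, which control entry into and flow through the pathway, rose 5.66-fold from 3677 to 18901 and 3.69-fold from 1265 to 4242, while PDK4 and PDK2, kinases that switch off pyruvate dehydrogenase, fell 23.3-fold from 979.8 to 38.3 and 11.3-fold from 3970.0 to 319. LDHB fell 5.53-fold and LDHA 2.29-fold.

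RNA-binding proteins were set apart by family. Of 22 hnRNP genes, which package nuclear RNA, 14 fell and 1 rose, and of 19 SR splicing factors and their kinases, 9 rose and 6 fell. HNRNPH3, HNRNPA0 and HNRNPA1 fell 5.48-fold, 4.77-fold and 3.62-fold. SRSF5, SRSF6 and SRSF3 rose 7.15-fold, 3.42-fold and 3.11-fold, whereas the SR protein kinases CLK2 and CLK4 fell 5.11-fold and 4.39-fold. Small nucleolar RNA host genes, whose introns yield guide RNAs for ribosomal RNA modification, rose in 12 of 15 cases with none lower (median 1.47). SNHG12 went from 2103 to 21211, 11.1-fold higher, SNHG20 from 65.5 to 555, 9.32-fold higher, and GAS5 from 79248 to 142679.5, 1.98-fold higher. Ribosome biogenesis genes in contrast were mixed (13 higher and 21 lower of 63), with the catalytic polymerase I subunit POLR1A 28.5-fold lower (955 to 30.5) and NOP58 6.96-fold higher (2219 to 14035). mRNA decay genes leaned higher (14 higher and 6 lower of 29), among them the decapping gene DCP1A (10.9-fold, 1789 to 17788) and ZFP36L2 (6.61-fold), while ELAVL1 (HuR), which protects AU-rich messages, fell 3.17-fold from 1443 to 413.

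The largest class with a raised median was that of ZNF-named zinc finger genes, a list taken by name that holds genes with a KRAB domain and others. Of 405 compared, 206 rose and 58 fell, which is 50.9% and 14.3% against 27.4% and 34.1% of all genes, and the median was 0.62. ZNF10 went from 119 to 4009, 36.99-fold higher, ZNF274, which recruits a histone methyltransferase, from 154 to 3323, 23.8-fold higher, and ZNF324 from 152 to 2461, 17.8-fold higher. The second probe of ZNF10 differed by 1.01 on the log2 scale against 5.21 for the brightest, so the size depends on the probe. ZNF395 moved the other way (1016 to 164, 5.63-fold lower). The rise was present on and off chromosome 19, where many of these genes sit in clusters. On chromosome 19, 105 of 185 rose and 13 fell, and elsewhere 101 of 220 rose and 45 fell, while the other 1031 genes of chromosome 19 were near the background at 25.8% higher and 31.9% lower. With normexp background correction the median was 0.35, with 163 genes higher and 36 lower. The lean was also seen at every level of signal. With all genes split by signal into 5 bins of equal size, in the dimmest bin 39.4% of ZNF genes and 23.8% of other genes were higher, and in the brightest bin, which held 25 ZNF genes, 56.0% and 29.8%. Chromatin regulators beyond this family were close to balance or leaned higher, with 12 higher and 5 lower of 24 histone demethylase and jumonji genes. KDM6A rose 6.61-fold from 277 to 1663, and KDM1A (LSD1) fell 4.16-fold from 2116 to 462.

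Early response transcription factors were high 24 h into treatment, but not as a whole class. Of 15 AP-1 genes, 8 rose and 1 fell. BATF2 rose 22.2-fold from 49.8 to 1005, FOSB 15.7-fold from 1009 to 14366 and FOS 2.84-fold from 3434 to 8879. JUN (4231 to 4809) and JUNB (606 to 448) stayed within 1.5-fold, at 0.32 and -0.30. Of 34 other immediate early genes, 17 rose and 10 fell. EGR4 and EGR2 were below background in control, with intensities of 21.1 to 2985 and 7.47 to 1144 (higher by at least 93.8-fold for EGR4 and at least 35.98-fold for EGR2). CSRNP1 rose 14.8-fold from 367 to 4958. In the same list MYC fell 13.6-fold from 88284 to 5889, NR4A2 9.09-fold from 1367 to 137 and ID1 7.46-fold from 64250.2 to 7831. Feedback inhibitors of ERK showed the same split, with the phosphatase DUSP6 4.65-fold higher (3533 to 14923) and DUSP1 2.47-fold lower (106519 to 39176), SPRED2 2.97-fold higher and SPRY1 5.36-fold lower (942 to 159.6).

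NF-κB subunits and their inhibitors rose in 13 of 17 cases and none fell (median 1.47). RELB went from 2762 to 21334, 8.498-fold higher, RELA from 1281 to 5617, 4.82-fold higher, and CYLD, a deubiquitinase that restrains the pathway, from 47.6 to 192, 4.44-fold higher. TNFAIP3 (A20), a feedback inhibitor, rose 3.06-fold from 804 to 2235. NFKBIA, which encodes IκBα, did not follow them, at 35739 to 33086 and a difference of 0.03. An NF-κB site (GGG, any 2 bases, then TTTCC, on either strand) lay in the promoter window of 5 of 14 of these genes (35.7%), against 2.04% of the genes compared and 1.92% of all promoters. The 130 bases before the start of 4 of the 5 are shown with the site or its reverse complement in capitals, at chr2:60881444-60881573 on the plus strand for REL, chr4:102501229-102501358 on the plus strand for NFKB1, chr6:137867129-137867258 on the plus strand for TNFAIP3 and chr14:35404750-35404879 on the minus strand for NFKBIA (RefSeq, GRCh38.p14).
REL: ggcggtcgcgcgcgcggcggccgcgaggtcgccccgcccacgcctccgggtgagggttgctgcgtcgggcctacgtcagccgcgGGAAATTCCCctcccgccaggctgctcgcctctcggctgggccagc
NFKB1: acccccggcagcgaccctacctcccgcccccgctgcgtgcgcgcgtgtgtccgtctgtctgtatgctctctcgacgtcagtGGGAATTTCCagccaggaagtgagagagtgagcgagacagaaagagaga
TNFAIP3: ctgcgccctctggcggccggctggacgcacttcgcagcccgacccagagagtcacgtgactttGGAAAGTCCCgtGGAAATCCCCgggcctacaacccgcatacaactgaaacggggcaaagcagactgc
NFKBIA: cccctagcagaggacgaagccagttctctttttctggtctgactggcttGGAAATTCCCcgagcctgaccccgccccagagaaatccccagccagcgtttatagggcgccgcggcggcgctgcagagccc

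REL and NFKB1 rose 4.42-fold from 72.3 to 290.5 and 2.199-fold from 656 to 1312, so genes with and without a difference held the same letters. Over all genes compared, 31.95% of the 266 with this site were higher and 27.1% of the 12776 without it. By size, the site lay in 2.39% of genes past 1.5-fold higher, 2.05% past 4-fold and 0 of 79 past 16-fold. Among genes lower by the same steps it lay in 1.79%, 2.03% and 2.70% (2 of 74).

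Phosphatase genes, the family that cantharidin acts on, were themselves changed. Of 33 PP1, calcineurin, PP4, PP5 and PP6 genes, 17 rose and 11 fell. PPP1R10, a nuclear PP1 partner, went from 184 to 7888, 47.2-fold higher. PPP1R15A (GADD34), which restores translation by guiding PP1 to eIF2α, rose 6.58-fold from 3272 to 19572, and the PP6 regulatory genes PPP6R1 and PPP6R2 rose 5.15-fold and 4.52-fold. The PP1 catalytic genes PPP1CB and PPP1CC fell 2.66-fold and 2.57-fold, and calcineurin PPP3CA fell 3.37-fold from 690.1 to 186. Of 25 PP2A genes, 9 rose and 3 fell, with PPP2R5B 13.8-fold higher (1137 to 14245) and the striatin scaffold STRN 7.56-fold higher (46.5 to 319.6). The catalytic genes PPP2CA and PPP2CB rose 1.65-fold and 2.08-fold, and the scaffold PPP2R1A stayed within 1.5-fold (0.44).

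Families of secreted factors held both rises and falls. Of 10 CXC chemokine genes, 6 rose and 2 fell, and of 20 CC chemokine genes, 6 rose and 5 fell. CCL20 rose 13.95-fold from 369 to 4682, while CCL2, the monocyte chemokine, fell 14.1-fold from 2967 to 192. Among 27 interleukins 10 rose and 7 fell. IL23A went from 106 to 3411, 35.2-fold higher, IL11 from 177 to 2262, 14.1-fold higher, and IL18 from 1693 to 6487, 4.22-fold higher. IL6 was dim on both arrays (60.01 to 67.9) and within 1.5-fold. TNF superfamily ligands mostly fell (6 of 10), with TNFSF12 (TWEAK) 6.396-fold lower (12790.5 to 1817). TNF was the sole one to rise (2.45-fold, 169 to 377). Their receptors included the death receptor gene TNFRSF10B, which rose 7.49-fold from 8612 to 58609.7, and TNFRSF1A, which fell 3.71-fold from 4475 to 1098.

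Growth factors were likewise divided within families. HBEGF and NRG1, ligands of the EGF receptor family, rose 20.7-fold from 287 to 5381 and 9.76-fold from 722 to 6400.4, and AREG rose 4.35-fold from 3702 to 14645. Their receptor gene ERBB2 fell 12.3-fold from 1304 to 96.2, and EGFR fell 1.91-fold from 1072 to 509, with other probes of EGFR between -0.85 and -3.23 on the log2 scale. VEGFA rose 8.79-fold from 1193 to 9534 by its brightest probe and by 0.81 on the log2 scale by its other probe, and VEGFB, VEGFC and PDGFB fell 5.22-fold, 5.56-fold and 4.95-fold. KITLG, which encodes stem cell factor, was not well above background in control (9.195 to 1190.1, at least 37.4-fold higher). Genes of the TIMP inhibitors of matrix proteases and of plasminogen activation, taken as 1 list, rose in 7 of 12 cases and fell in 2. TIMP4, an inhibitor of matrix proteases, was not well above background in control (7.001 to 158, at least 4.96-fold higher). Tissue factor (F3) went from 94.7 to 988, 11.5-fold higher, TIMP1 from 16052 to 117314, 8.04-fold higher, and SERPINE2 from 1062 to 5189.7, 5.37-fold higher. Of the collagenases and stromelysins, MMP1 rose 20.8-fold from 3867 to 73186 and MMP10 rose from a control signal below background (29.8 to 2084, at least 65.5-fold higher), whereas MMP11 fell 5.05-fold from 177 to 31.96. Semaphorins, ephrins and Eph receptors, which steer cell migration, leaned lower, with 5 higher and 20 lower of 33. SEMA4G, SEMA4B and SEMA3C fell 9.78-fold, 7.75-fold and 7.44-fold, and SEMA3B rose 5.25-fold from 129.99 to 620.4.

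**Figure D4:**
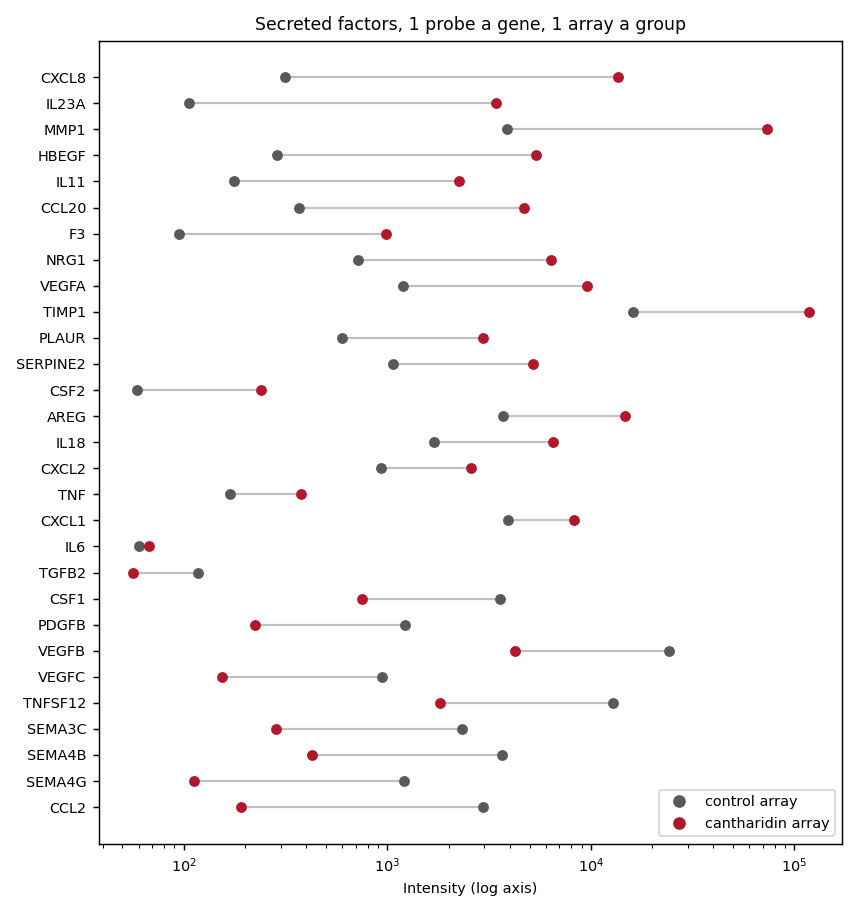
Intensity (x axis, log axis) of genes of secreted factors on the control array (grey) and the cantharidin array (red), ordered by their difference. Each point is the brightest probe of the gene on 1 array, and the intensities are not scaled between arrays. The range runs from CXCL8 (315 to 13626) at the top to CCL2 (2967 to 192) at the bottom, with IL6 near no difference.

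Metallothioneins, which bind zinc and copper and are turned on by the metal sensor MTF1, fell in 9 of 11 cases and none rose (median -2.79). MT1M went from 42512 to 743, 51.98-fold lower, MT1E from 102223 to 8959, 10.4-fold lower, and MT1X from 143099 to 14018, 9.28-fold lower. These were bright genes in control, so the fall stayed far above background. MT2A fell less (2.44-fold, 365329 to 136034), and MT1G differed by 0.56, just inside 1.5-fold. The members are near-identical copies and probes may cross-hybridise. SLC30A1, a zinc exporter under the same sensor, fell 9.91-fold from 3417 to 313. Interferon-stimulated genes fell in 15 of 33 cases and rose in 6. IFIT1 fell 32.9-fold from 1949 to 53.9 and IFITM3 6.49-fold from 25692 to 3597, whereas ISG20 rose 12.9-fold from 8359 to 98058 and MX1 6.03-fold from 110.4 to 605. NRF2 targets were divided, with 11 higher and 7 lower of 26. SRXN1 rose 9.82-fold from 6965 to 62154 and GCLM 5.68-fold from 546 to 2821, HMOX1 stayed within 1.5-fold (0.35), and the pentose phosphate gene TKT fell 4.05-fold from 63702 to 14308.

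Protein turnover genes differed by route. Of 44 autophagy genes, 20 rose and 7 fell. WDR45, ATG101 and MAP1LC3B (LC3B) rose 8.83-fold from 2113 to 16965, 7.23-fold from 2854 to 18743 and 7.07-fold from 19079 to 122662. BECN1 (Beclin 1) was level at 1084 to 986 (0.00). Lysosomal enzymes leaned the other way, with 20 lower and 8 higher of 42. CTSH and FUCA1, a cathepsin and a fucosidase, fell 16.7-fold from 9886 to 539 and 7.996-fold from 2715 to 309, and CTSK rose 11.3-fold from 258 to 2643. Proteasome subunits were close to level, with 25 of 38 within 1.5-fold (median -0.05).

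Integrins and tetraspanins leaned lower, and other adhesion and matrix lists held both rises and falls. Of 22 integrin subunits, 13 fell and 3 rose. ITGA3, a laminin receptor, fell 8.73-fold from 7293 to 759.5, and ITGB1, the shared beta chain, fell 2.49-fold from 6998 to 2553. ITGAX rose 6.89-fold from 66.6 to 417. Laminin chains had 4 higher and 6 lower of 11, and matrix metalloproteinases 6 and 7 of 17. LAMB3 rose 3.81-fold from 371 to 1283, while LAMB1 and LAMC1 fell 8.56-fold from 7379.7 to 784 and 5.47-fold from 11744 to 1951. Of 38 cadherins, claudins and tight junction genes, 11 rose and 17 fell. CLDN4 fell 16.2-fold from 39896 to 2239.8 and CDH2 (N-cadherin) 13.9-fold from 5023 to 328, and TJP1 (ZO-1) and CLDN1 rose 4.21-fold and 3.999-fold. CDH1 (E-cadherin) fell from 167 to a signal not well above background (23.9, at least 6.34-fold lower), so the epithelial and the neural cadherin were both low. Tetraspanins fell in 13 of 23 cases and rose in 2.

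Lists of developmental genes differed from each other. HOX genes, which set position along the body axis, fell in 19 of 31 cases and rose in 4. HOXC4 and HOXB4 fell 13.2-fold from 1258 to 86.4 and 12.7-fold from 6400.3 to 457, and HOXB9 rose 21.8-fold from 556 to 11034. Notch pathway genes fell in 12 of 22 cases and rose in 4, with the receptor NOTCH3 4.71-fold lower (2951 to 569.9) and its target HES1 1.599-fold lower (271 to 154). The TGF-β mediator SMAD3 fell 10.4-fold from 15852 to 1388, and the inhibitor SMAD6 fell 8.64-fold from 981 to 103. SOX factors were balanced (4 higher and 5 lower of 14), with SOX9, a factor of ductal identity, 7.55-fold lower (12388 to 1491). Pancreatic lineage factors had 3 higher and 5 lower of 17, and FGF ligands and receptors 6 and 3 of 19. The circadian clock list was level as a whole, with 7 higher and 6 lower of 22 (median 0.01). Its output gene DBP fell 49.5-fold from 4808 to 88.3 and PER1 3.996-fold, while CRY1 and CRY2, repressors of the same loop, rose 5.45-fold and 5.29-fold.

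The lists of surface and keratin genes had shares of rises near or below those of all genes. Of 39 cornified envelope, SPRR and S100 genes, 11 rose and 11 fell, close to the shares of all genes. Of 37 keratins 9 rose and 8 fell, and of 69 keratin-associated genes 7 and 17. Single members differed widely. S100P, a calcium-binding protein, went from 411 to 7838, 20.97-fold higher, SPRR2A from 268 to 4998, 20.5-fold higher, and SPRR2E from 151 to 2545, 18.6-fold higher. SPRR2 genes are close copies, so probes may share transcripts. S100A4 fell 7.27-fold from 54905 to 6867. Sciellin (SCEL), a cornified envelope precursor that is in none of these lists and was named after its value was seen, rose 29.9-fold from 92.5 to 2517.

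Beyond the lists, the largest rises on probes measured on both arrays included ZGLP1, a germline zinc finger factor (85.5 to 4999, 64.3-fold), C11orf96 (811 to 45381, 61.6-fold) and RASD1, a small GTPase induced by glucocorticoid (744 to 27678, 40.9-fold). The second probe of ZGLP1 differed by 2.15 on the log2 scale against 6.01 for the brightest. The pore-forming gene GSDMB rose 40.03-fold from 346 to 12575. The largest falls included IGFBP4, an IGF-binding protein (31977 to 470.05, 61.8-fold), and the protease PRSS23 (10146 to 148, 62.2-fold). CCN5 fell 47.4-fold from 14067 to 269.7, and TOP2A, topoisomerase II of dividing cells, 49.6-fold from 1629.9 to 29.9.

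Transcript kinds differed in their shares. Of 384 transcribed pseudogenes, 124 rose (32.3%) and 93 fell (24.2%), with a median of 0.06. Of 676 long non-coding RNAs, 203 rose and 193 fell (median -0.05), and of 15567 coding genes, 4221 rose and 5401 fell (median -0.17). Antisense transcripts, at 56 higher and 70 lower of 200 (median -0.17), had a median like that of coding genes. By the span of the gene on the genome, the longest of 5 equal bins of coding genes (median 153 kb) had 39.0% lower and 24.4% higher, against 32.8% and 24.9% in the shortest (median 3.97 kb). Genes commonly used as references were not level, with 7 of 15 lower and 1 higher. RPLP0 (-0.04) and PGK1 (0.01) lay closest to 0, and IPO8 (-2.17) farthest.

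Among genes past 1.5-fold higher, promoter letters of AP-1 and of the ATF4 composite site were more frequent at the 4-fold and 16-fold steps. Those of the cyclic AMP and antioxidant elements were more frequent past 4-fold higher than past 4-fold lower, without a further increase past 16-fold. The AP-1 site TGANTCA, which reads the same on both strands, lay in 5.49% of the 13042 promoter windows of genes compared (7.76% of all promoters). The share was 6.93% among genes at least 1.5-fold higher, 8.85% past 4-fold and 15.2% past 16-fold (12 of 79). Among genes lower by the same steps it was 4.51%, 3.42% and 4.05% (3 of 74). The 4-fold and 16-fold steps were limited to genes above background on both arrays, so the steps differ in detection as well as in size. In the other direction of reading, 34.4% of the 716 genes with the site were higher and 28.5% lower, against 26.8% and 35.1% of the 12326 without it. The cyclic AMP element TGACGTCA, which holds no TGANTCA match, lay in 5.51% of genes past 4-fold higher and 1.92% past 4-fold lower. The share in the genes compared was 2.75%. Past 16-fold it lay in 5.06% (4 of 79) of genes higher and 2.70% (2 of 74) of genes lower. The ATF4 composite site of the stress genes lay in 2.39%, 3.46% and 6.33% (5 of 79) of genes higher by the 3 steps. Among genes lower it lay in 1.77%, 1.71% and 1.35%. Genes within 1.5-fold held it in 2.56%, more than genes past 1.5-fold higher, and all promoters in 3.67%. The antioxidant element (TGAC, any 3 bases, then GC, on either strand) was in 18.1% past 4-fold higher and 11.8% past 4-fold lower. Its share in the genes compared was 14.9%. Past 16-fold it was in 17.7% (14 of 79) of genes higher and 12.2% (9 of 74) of genes lower. The Sp1 box GGGCGG (either strand) did not share this lean, at 67.1% past 4-fold higher and 73.6% past 4-fold lower against 62.8% of the genes compared. Sp1 was not alone in this, and the elements with a lean were part of a larger set searched. Letters of E2F, SRF and metal response sites were also less frequent past 4-fold higher than past 4-fold lower. The shares were 0.64% and 1.71% for SRF and 59.6% and 64.1% for the metal response element. Heat shock and sterol elements were about as frequent on both sides. The 130 bases before the start of 5 of the 12 genes past 16-fold are shown with the AP-1 letters in capitals, at chr6:41636888-41637017 on the plus strand for MDFI, chr19:10305646-10305775 on the minus strand for ZGLP1, chr12:56338754-56338883 on the plus strand for IL23A, chr13:77535576-77535705 on the plus strand for SCEL and chr9:128149323-128149452 on the plus strand for LCN2 (RefSeq, GRCh38.p14).
MDFI: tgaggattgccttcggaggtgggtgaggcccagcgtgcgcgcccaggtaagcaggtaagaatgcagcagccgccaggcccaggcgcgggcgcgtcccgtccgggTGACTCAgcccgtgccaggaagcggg
ZGLP1: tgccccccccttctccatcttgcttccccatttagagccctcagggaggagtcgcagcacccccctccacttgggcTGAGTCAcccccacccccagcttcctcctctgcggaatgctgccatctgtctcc
IL23A: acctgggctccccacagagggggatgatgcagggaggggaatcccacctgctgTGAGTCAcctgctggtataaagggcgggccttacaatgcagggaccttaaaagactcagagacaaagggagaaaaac
SCEL: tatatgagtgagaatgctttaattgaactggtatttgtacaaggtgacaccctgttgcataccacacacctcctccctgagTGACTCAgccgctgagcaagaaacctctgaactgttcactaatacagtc
LCN2: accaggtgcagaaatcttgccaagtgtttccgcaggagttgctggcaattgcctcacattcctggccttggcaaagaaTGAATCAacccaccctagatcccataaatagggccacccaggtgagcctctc

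The letters began 26 bases before the start in MDFI, 54 in ZGLP1, 77 in IL23A, 49 in SCEL and 52 in LCN2. LCN2, an iron-siderophore carrier of inflamed epithelium, rose 30.2-fold from 116 to 3191, and MDFI, an inhibitor of myogenic factors, went from 57.9 to 4822, 91.7-fold higher. By GC content of the window, 23.2% of genes in the lowest of 5 equal bins (median 46.7% GC) and 28.0% in the highest (median 76.3% GC) were higher, and the part of base composition in these shares was not tested.

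**Figure D5:**
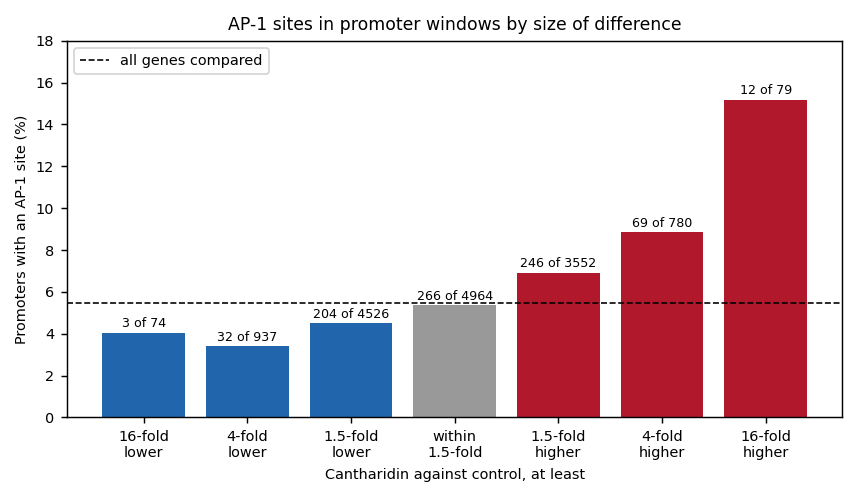
Share of promoter windows with the AP-1 letters (y axis, %) in genes grouped by the size and direction of their difference (x axis), with the number of genes above each bar. Groups are nested, so that genes past 16-fold are also in the 4-fold and 1.5-fold bars. The 4-fold and 16-fold bars hold only genes above background on both arrays. The dashed line is the share in all genes compared (5.49%). The bars rise from 6.93% to 15.2% on the higher side and stay between 3.42% and 4.51% on the lower side.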

How the data were processed

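RNA of PANC-1 cells was hybridised to 1-colour Agilent arrays with one array per group, and the deposited scanner files hold spot intensity values that, per the file headers, Agilent Feature Extraction 11.0.1.1 had background-subtracted, with probes annotated to GRCh37. The deposited table of log2 values that the authors had normalised, by a scaling not stated in that table, was used only as an alternative. Processed signals of spots with an outlier flag and of control spots were left out, spots of a probe were averaged, log2 was taken, and the 75th percentile of each array was subtracted. A probe was compared if the scanner software called it well above background on either array. Of the probes, 25711 matched a gene, and the brightest probe stood for the gene. A difference was counted at 1.5-fold. Where a signal was not well above background on 1 array, a lower bound was computed against the higher of that signal and the lowest signal well above background there. With 1 array a group there was no test and no replicate error, and the number of arrays limits the precision. The third array, of cells given okadaic acid, was not used, and 0 columns of other samples were used.

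The members and the 109 gene lists and 6 marker lists were chosen with earlier results of these data known. Named genes were, per list, up to 4 in each direction with the largest change on probes above background on both arrays that moved one way, the 20 largest changes each way over all genes, defining members, and up to 2 with a bound of at least 4-fold. Other genes were named after their values were seen, among them SCEL, LCN2, SLC30A1, FEN1, CDC6, RRM2B, MT1G and GAS5. Promoter windows ran from 250 bases before to 50 bases after the start (RefSeq, GRCh38.p14), matched by symbol for 13042 genes. Alternatives were normexp background correction (limma 3.58.1 in R 4.3.3), other scalings, filters and floors, the deposited log2 table, the median over probes of a gene, and a 2-fold threshold. The code was tested on simulated data. Some genes of the lists are counted but not reported by name here.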

Additional observations from a re-analysis of the deposited data

How the results depend on the processing

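Counts of genes and probes past the threshold stayed within 1.5 times of the values reported under every alternative but one. At a 2-fold threshold, 5624 probes and 3718 genes were lower, since fewer pass by construction. Of 115 list medians, 45 lay past 1.5-fold. None of these changed sign in the alternatives where they were computed, nor did any of the 249 named genes past 1.5-fold. List medians and named genes were not computed for the setting without a filter or for the 2-fold threshold. Of 1033 alternative values of the list medians, 54 moved by more than 0.21 on the log2 scale, the combined SD between replicate spots of both arrays. Of 2420 alternative values of the named genes, 221 moved by more than this. With normexp background correction, the AP-1 median was 0.72 and that of TNF superfamily ligands -0.57, inside 1.5-fold. The median of all genes lay between -0.09 and -0.30 on the log2 scale over the settings, with -0.30 for no scaling between arrays, and the share of higher genes among those past the threshold was 44.5%, between 38.8% and 47.8%. No paired analysis was possible because each group had 1 array, and for the same reason no array could be left out. The spread between cultures was not measured, and for genes dim on 1 array the size of the difference is bounded only from below.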
